A study of Mus musculus with 6 samples.

Results

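Genes that p53 activates were compared between *Hotair* knockout and wild-type cells, cultured as fibroblasts from tail tips of neonatal mice. The list held 35 genes that textbooks name as p53 targets or p53 family members, and 33 of them were measured, out of 18193 genes in all. *Bax* and *Trp53*, the gene of p53 itself, were not analysed here because no probe set carried either name by itself. A probe set is a group of short probes that reads the 3′ part of a transcript. The probe set of each gene was chosen by the highest mean log2 signal over all 6 arrays, and this mean does not use the genotype. The list itself was taken up because earlier results of these data had shown p53 targets lower in knockout. The genotype differences of these genes are therefore given as a description, and counts of genes that passed a test are set beside the same counts over all genes.

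The series had 3 arrays of *Hotair* knockout cells and 3 arrays of wild-type cells, each from total RNA of neonatal tail tip fibroblasts. The mice of both genotypes had been backcrossed to C57BL6. *Hotair* makes a long noncoding RNA and lies among the *Hoxc* genes, and the design of the knockout allele is not given in the labels. The signal of *Hotair* itself was not analysed here, so the labels were not checked against it. Neither a passage number nor the animal or culture behind each array is given, so the p-values reflect variation between the arrays at hand, part of which may be technical. Values are log2 signals after RMA, which corrects for background, brings arrays to one distribution and gives 1 value per probe set.

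p53 is a transcription factor that is kept low by the ubiquitin ligase Mdm2 and accumulates after DNA damage and other stress. It then activates genes that stop the cell cycle, start cell death, repair DNA or dampen p53 in return. Growing fibroblasts in culture is itself a known trigger of this response, and the p53 target *Cdkn1a* is a standard marker of cells that leave the cycle.

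Replicate 1 of both genotypes stood apart. On the leading principal component (48.9% of the variance) knockout replicate 1 scored −82.7 and wild-type replicate 1 −114.7, and the remaining arrays scored 39.3 to 74.7. RNA quality also varied: 3′ probe sets exceeded 5′ probe sets by 0.63 (*Actb*) and 0.75 (*Gapdh*) in knockout replicate 1, and by at most 0.21 and −0.03 on the other arrays. Of 14 fibroblast markers 0 lay below the array median on every array, and their log2 summed signal, carried by the brightest genes, was 16.8 to 17.0 in knockout and 16.5 to 16.8 in wild type. Single markers moved far more: 12 of the 14 had a difference above 0, with a median of 0.59. Without replicate 1, where 7.56% of all genes were called higher in knockout, 5 of them were (*Col3a1*, *Thy1*, *Dcn*, *Lum* and *Fbln1*; limma adjusted p 0.010 to 0.047), so they differed on the same arrays as the p53 targets. The surface marker *Thy1* measured 11.71, 10.54 and 10.28 in knockout and 12.15, 4.65 and 7.17 in wild type. Its signal in wild-type replicate 2 lay below the array median, so the size of its difference is uncertain. Macrophage and leukocyte markers had a log2 summed signal of 11.6, 9.22 and 8.84 in knockout and 9.98, 9.63 and 9.70 in wild type. Of the 10, 7 had a difference above 0, and without replicate 1 the median was −0.03, with 5 below 0. In replicates 2 and 3 *Cd14* was lower in knockout (5.87 and 5.75, against 8.35 and 8.89). *Lyz2* was higher there (7.55 and 5.98, against 7.22 and 5.30). Of the 10 markers, 4 (*Ptprc*, *Adgre1*, *Itgam* and *Cd86*) lay below the array median on every array. Skeletal muscle markers, led by *Acta1*, had a log2 summed signal of 11.6, 8.08 and 8.42 in knockout and 12.9, 10.3 and 9.47 in wild type, with *Myod1*, *Myog* and *Myf5* below the array median throughout. Keratinocyte markers reached 8.88 to 9.30 in knockout and 9.14 to 9.41 in wild type, and 5 of 9, *Krt14* among them, were below the median throughout. The part of the mix of cells and of RNA quality in the genotype differences was not tested. Nor was it tested whether leukocytes, muscle cells or keratinocytes were present.

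p53 binds a pair of 10-base motifs, here called decamers, and the sequences upstream of the members' starts show which of these genes carry such a pair close to a start. RefSeq promoter windows (build GRCm38.p6, 250 bases before to 50 after each start) were at hand for 24 of the 33 genes. Each was searched for 2 adjacent p53 decamers, with C at position 4 and G at position 7 of each required and mismatches to the other letters of the p53 consensus counted. The consensus decamer is its own reverse complement, so one search covers both strands. At most 1 mismatch was found for *Cdkn1a*, *Ccng1* and *Rps27l*, 3 of 24 genes against 0.0814% of all 27025 genes with a window. At most 2 were found for 5 of 24 genes (with *Cd80* and *Trp73*), against 0.392%, and at most 3 for 8 of 24 (with *Aen*, *Bbc3* and *Sesn1*), against 1.63%. A single exact decamer was found for 9 of 24 genes, against 9.55% of all genes. These are matches of letters in a short window, which do not show binding, and many known p53 sites lie outside such windows.

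The 8 stretches below are the best match of each of the 8 genes with at most 3 mismatches. The 20 bases in capitals are the 2 decamers, and all stretches read 5′ to 3′ on the strand of the gene. *Cdkn1a* (chr17:29090888-29090978, plus strand) and *Ccng1* (chr11:40755422-40755521, minus strand) lie upstream of the annotated gene. *Rps27l* (chr9:66946291-66946320), *Cd80* (chr16:38458817-38458846), *Bbc3* (chr7:16309481-16309510), *Aen* (chr7:78895932-78895961) and *Sesn1* (chr10:41887261-41887290), all on the plus strand, and *Trp73* (chr4:154097215-154097244), on the minus strand, lie before an inner start, within the span of a longer transcript, and are shown with 5 bases on each side.
Cdkn1a: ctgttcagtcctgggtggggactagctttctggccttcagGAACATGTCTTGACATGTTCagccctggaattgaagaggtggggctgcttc
Ccng1: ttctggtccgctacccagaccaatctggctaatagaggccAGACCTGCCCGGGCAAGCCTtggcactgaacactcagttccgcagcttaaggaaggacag
Rps27l: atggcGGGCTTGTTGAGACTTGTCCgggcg
Cd80: gctcaGAACAGGCCTGGACAAGTCAcctcc
Trp73: tctccGGGCAAGCTGAGGCCTGCCCtgagt
Bbc3: cccgaCTGCAAGCCCCGACTTGTCCccagc
Aen: aagccGGGCTTGTCCGGGCAAGGAGcttcc
Sesn1: ccttcAAGCTTGTTTTTGCTGGCCTggtcc

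Most p53 targets were lower in the knockout mean, and most of this difference came from knockout replicates 2 and 3. Of the 33 genes 30 had a difference below 0, knockout minus wild type, as did 48.9% of all genes. The median difference was −0.74 on the log2 scale, from −2.96 (*Cd80*) to 1.45 (*Pltp*), and the median over all genes was 0.01. By replicate number the members' medians were 0.11, −1.33 and −0.95 for replicates 1, 2 and 3, against −0.03, −0.01 and 0.10 over all genes. In bulk RNA, fewer cells of a kind and less RNA per cell cannot be told apart.

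**Figure D1:**
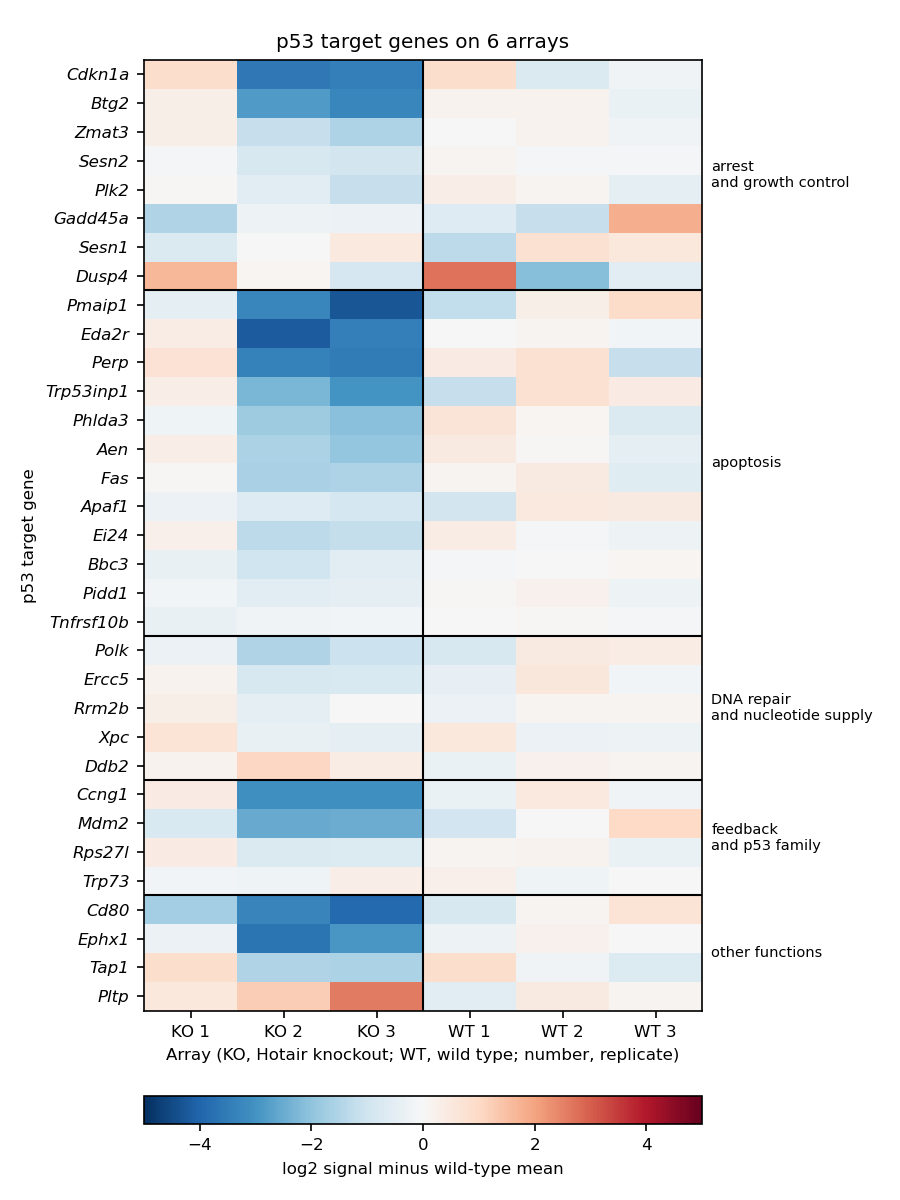
Heat map of 33 p53 target genes (rows, by role) on 3 *Hotair* knockout and 3 wild-type arrays (columns), in log2 signal minus the gene's wild-type mean. Knockout replicates 2 and 3 are blue for most rows (members' median by array, relative to each gene's mean, −0.77 and −0.89), while knockout replicate 1 (0.46) lies within the wild-type range (0.18 to 0.58).

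No member passed the test over all 6 arrays. By limma with Benjamini-Hochberg adjustment over all genes, 0 of 33 members and 0% of 18193 genes passed an adjusted p of 0.05, and the smallest was 0.743. Before adjustment, 5 members were lower at p under 0.05 (*Bbc3*, *Pmaip1*, *Mdm2*, *Ephx1* and *Cd80*), where 2.67% of all genes were, and 1 was higher (*Pltp*), where 4.01% were. With the replicate number as a block 10 were lower (*Cdkn1a*, *Btg2*, *Plk2*, *Sesn2*, *Bbc3*, *Phlda3*, *Ei24*, *Aen*, *Ephx1* and *Cd80*) and 2 higher (*Ddb2* and *Pltp*) at this level, against 4.23% and 6.86% of all genes, and again 0 passed after adjustment (smallest 0.424). All 3 knockout values lay below all 3 wild-type values for 5 members (*Sesn2*, *Bbc3*, *Tnfrsf10b*, *Ephx1* and *Cd80*), against 4.38% of genes, and above them for *Pltp*, against 5.56%. Within every replicate number 11 members were lower in knockout, against 13.4% of genes.

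When both arrays numbered 1 were left out, 18 of the 33 members passed as lower in knockout, against 6.41% of all genes, and 0 as higher, against 7.56%. The 18 were *Cdkn1a*, *Btg2*, *Sesn2*, *Zmat3*, *Pmaip1*, *Perp*, *Phlda3*, *Eda2r*, *Ei24*, *Aen*, *Apaf1*, *Trp53inp1*, *Polk*, *Mdm2*, *Ccng1*, *Tap1*, *Ephx1* and *Cd80*, with limma adjusted p from 0.0053 to 0.029 and 2 arrays per genotype. Replicate 1, where the members' median difference was 0.11, was set aside with this pattern already seen in the same values. The calls without it, here and for single genes below, are therefore a description. Over these 4 arrays the members' median was −1.12, and 29 of 33 lay below 0. Over all genes the median was 0.04, and 8042 of 18193 lay below 0. On all 6 arrays, knockout replicates 2 and 3 were the 2 lowest for 24 members, against 15.2% of genes, and the 2 highest for *Ddb2* and *Pltp*, against 13.8%; this count was chosen after values were seen. Leaving out knockout replicate 1 alone called 4 members as lower (*Btg2*, *Eda2r*, *Ccng1* and *Ephx1*), against 0.313% of genes, and moved their median to −1.25. Array weights, which count an array less the more it departs from its genotype, called 17 members as lower, against 4.85%, and 0 as higher, against 6.70%. Those weights were 0.33 for knockout and 0.24 for wild-type replicate 1, the 2 lowest of the 6 arrays. They were estimated from the same values and count replicate 1 least, so these 17 calls are a description too.

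**Figure D2:**
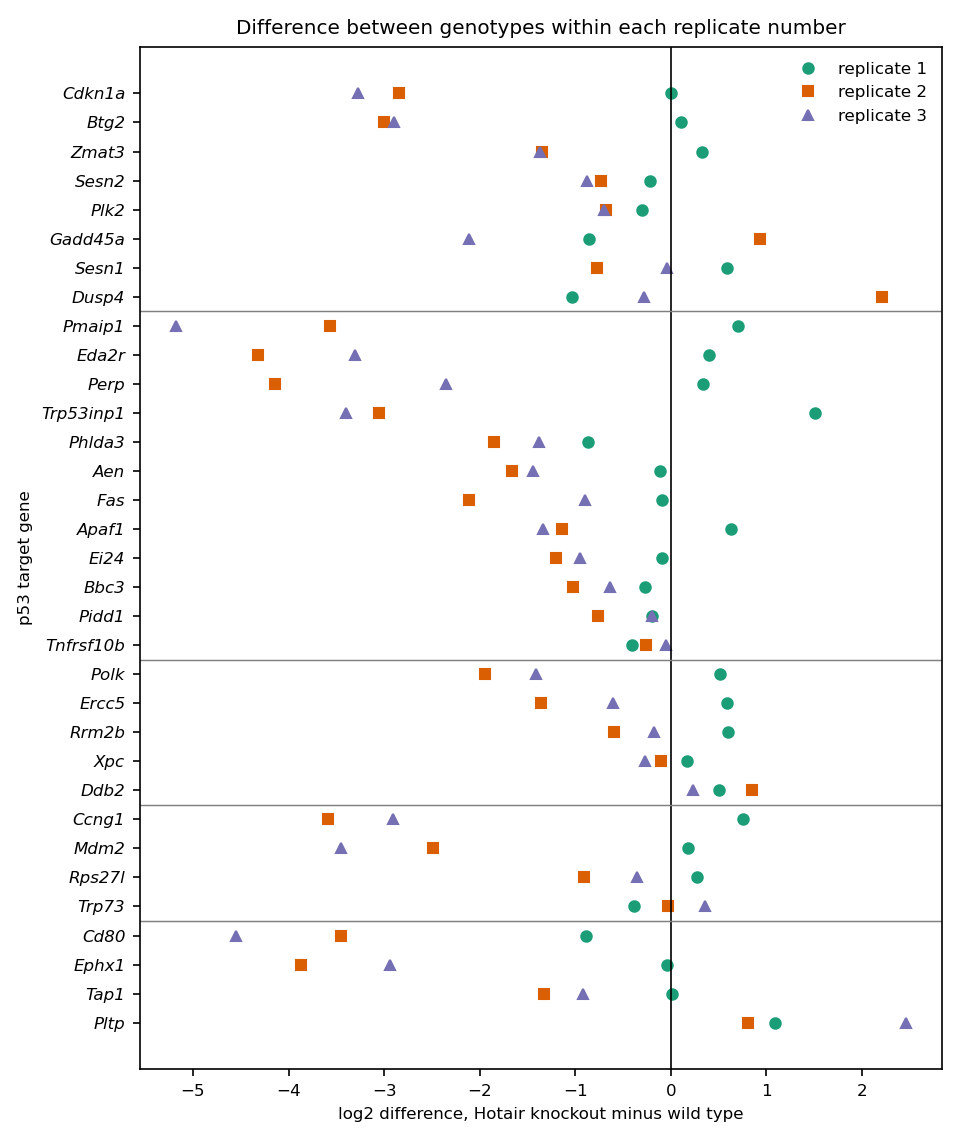
Log2 difference, *Hotair* knockout minus wild type, for each of 33 p53 target genes (rows, by role) within replicate number 1, 2 and 3 (marker shape and colour). Below 0 lie 14 genes in replicate 1, 29 in replicate 2 and 30 in replicate 3, against 9785, 9409 and 7208 of all 18193 genes.

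A direct test asked whether the genotype difference in replicates 2 and 3 was another than in replicate 1, where there is 1 array per genotype. The spread in this test therefore came from replicates 2 and 3 alone, and the split at replicate 1 was chosen with this pattern already seen in the same values, so the counts are a description. It was more negative in replicates 2 and 3 for 8 members (*Cdkn1a*, *Btg2*, *Pmaip1*, *Eda2r*, *Apaf1*, *Trp53inp1*, *Ccng1* and *Ephx1*; limma interaction, adjusted p 0.036 to 0.048), against 1.33% of all genes. It was more positive for 0 members, against 0.643%. These calls depended on the choice of probe sets. They numbered 1 with the mean of a gene's probe sets. With its most variable probe set, or when all 45037 probe sets were tested, they numbered 0.

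Among the genes of cell cycle arrest and growth control, *Cdkn1a* and *Btg2* had the most negative differences from wild type in replicates 2 and 3. *Cdkn1a* encodes p21, the inhibitor of cyclin-dependent kinases through which p53 stops the cycle. It measured 13.63, 9.16 and 9.32 in knockout replicates 1, 2 and 3, and 13.63, 12.01 and 12.58 in wild type. Knockout replicate 1 equalled wild-type replicate 1, and the other knockout arrays were the lowest of all, so the genotypes overlapped. The mean was 10.70 ± 2.54 in knockout and 12.74 ± 0.82 in wild type (SD, n = 3 each), a difference of −2.04 ± 1.28 (SE). Over replicates 2 and 3 it was −3.06 ± 0.23 (SE), or 8.33-fold lower in knockout. Its second probe set was at −2.28.

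*Btg2*, an antiproliferative cofactor of mRNA deadenylation, measured 11.43, 8.31 and 7.89 in knockout and 11.32, 11.31 and 10.79 in wild type. The wild-type arrays lay close together, while knockout replicate 1 lay above all of them and the other knockout arrays far below. Without replicate 1 the difference was −2.95 ± 0.25 (SE), and the other probe set of the gene was at −1.92 over all arrays. *Zmat3*, a zinc finger protein that binds RNA, was at 10.68, 9.20 and 8.83 in knockout and 10.35, 10.55 and 10.20 in wild type. *Sesn2*, a sestrin that restrains growth signalling through mTORC1, was lower in all 3 knockout arrays (9.11, 8.40 and 8.27, against 9.33, 9.13 and 9.14 in wild type), without overlap.

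The other 4 genes of this group did not pass without replicate 1. *Plk2*, a polo-like kinase, differed by −0.56 ± 0.37 (SE), with −0.30, −0.68 and −0.70 by replicate number. *Sesn1*, the related sestrin, differed by −0.08 ± 0.62, and its sign changed with the array left out (−0.73 to 0.31). *Gadd45a*, a growth arrest and DNA damage gene, was at 7.54, 8.80 and 8.75 in knockout and 8.39, 7.87 and 10.86 in wild type, so its difference of −0.68 ± 0.84 turned to 0.23 without wild-type replicate 3. *Dusp4*, a phosphatase of MAP kinases, was highest on the replicate 1 arrays (8.95 in knockout and 9.98 in wild type). It differed by 0.30 ± 1.33, with the other sign in some alternatives. Wild-type replicate 2 (5.15) lay below the array median, so the difference of 2.21 in replicate 2 is uncertain in size.

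All 12 measured genes of cell death had a difference below 0, with a median of −1.05. By replicate number the medians were −0.09, −1.76 and −1.36. *Pmaip1* (Noxa), a BH3-only protein that blocks survival factors of the Bcl-2 family, measured 8.83, 6.08 and 5.06 in knockout and 8.12, 9.65 and 10.24 in wild type. Its difference was 0.70 in replicate 1 and −3.57 and −5.17 in replicates 2 and 3. Knockout replicate 3 lay below the array median, so the last value is uncertain in size. *Bbc3* (Puma), the other BH3-only protein of the list, differed far less but without overlap: 7.65, 7.03 and 7.51 in knockout against 7.92, 8.05 and 8.14 in wild type, a difference of −0.64 ± 0.20 (SE). Without replicate 1 *Bbc3* did not pass (limma adjusted p = 0.058).

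*Eda2r*, a receptor of the tumour necrosis factor family that binds ectodysplasin A2, measured 8.60, 4.06 and 4.80 in knockout and 8.20, 8.38 and 8.11 in wild type. In knockout replicates 2 and 3 this signal lay below the array median (5.57 to 5.68 over the arrays), while the other 4 arrays lay close together. *Eda2r* passed without replicate 1 (limma adjusted p = 0.0056), but the size of its difference is uncertain for that reason. *Perp*, a tetraspan membrane protein of desmosomes and cell death, was likewise near the floor in knockout replicates 2 and 3 (7.84, 3.71 and 3.61 in knockout, against 7.51, 7.85 and 5.96 in wild type). Of the 9 keratinocyte markers, *Dsp*, which builds desmosomes too, was at −2.20 and the other 8 at −0.05 to 0.14. *Dsp* lay below the array median on every knockout array, so its difference is uncertain in size. *Fas*, a death receptor, was at 7.77, 6.07 and 6.19 in knockout and 7.87, 8.18 and 7.09 in wild type, and did not pass without replicate 1 (limma adjusted p = 0.056).

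*Trp53inp1*, a nuclear protein that enhances p53 activity, measured 10.87, 8.23 and 7.53 in knockout and 9.37, 11.28 and 10.93 in wild type. Its difference of 1.51 in replicate 1 was the most positive of any member there, against −3.05 and −3.40 in replicates 2 and 3. *Phlda3*, a pleckstrin homology protein that inhibits Akt, was lower within each number (−0.86, −1.85 and −1.38). *Aen*, an apoptosis-enhancing nuclease, was at 11.32, 9.40 and 9.05 in knockout and 11.43, 11.07 and 10.49 in wild type, and all 4 of its probe sets were lower (−1.98 to −0.83). *Ei24*, a membrane protein of the endoplasmic reticulum, and *Apaf1*, the scaffold of the apoptosome, differed by −1.08 ± 0.15 and −1.24 ± 0.16 (SE) without replicate 1.

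The death-domain protein *Pidd1* and the TRAIL receptor *Tnfrsf10b* showed the smallest differences of this group. *Pidd1* differed by −0.38 ± 0.19 (SE), and *Tnfrsf10b* by −0.24 ± 0.14, with 7.36, 7.56 and 7.59 in knockout and 7.76, 7.82 and 7.64 in wild type.

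**Figure D3:**
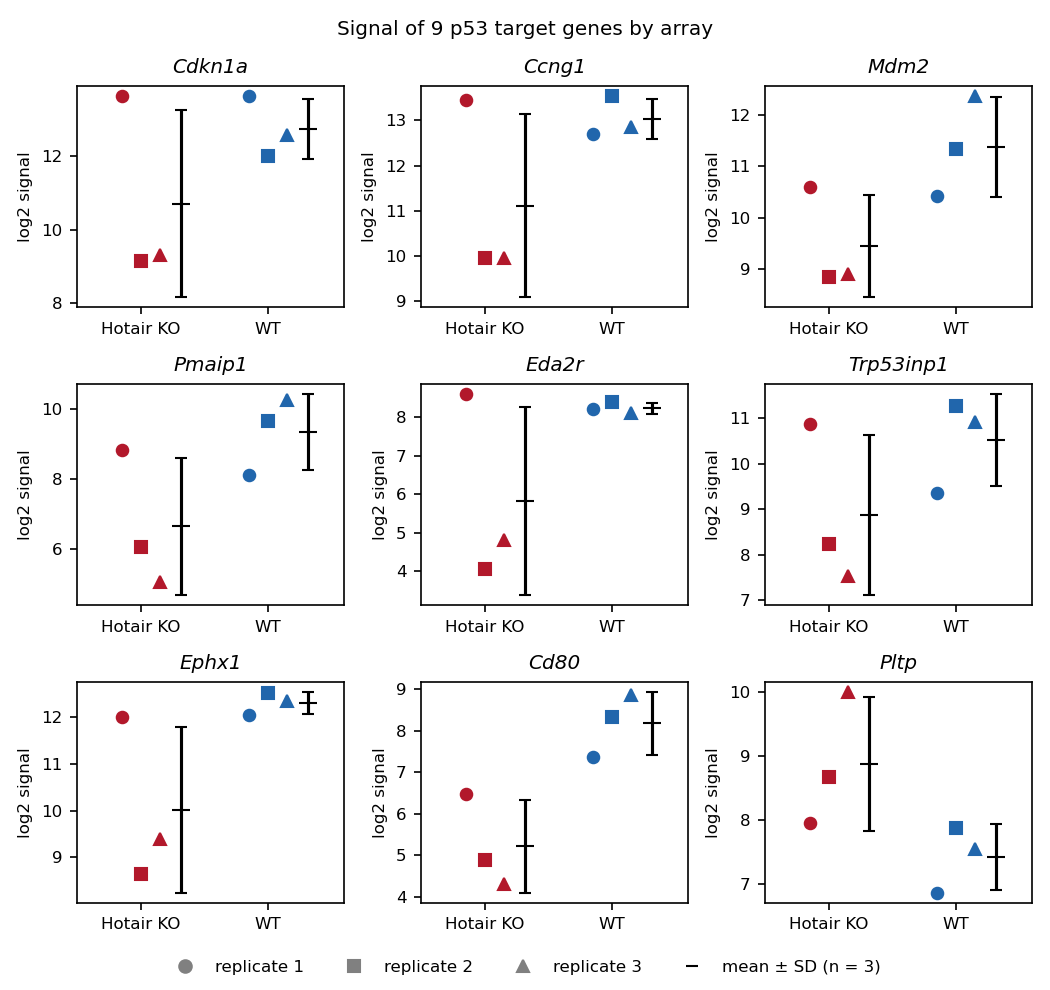
Log2 signal of 9 p53 target genes on each array (marker shape, replicate number), with *Hotair* knockout left of wild type; bars show mean ± SD (n = 3). In 8 panels knockout replicates 2 and 3 are the lowest arrays and knockout replicate 1 lies above them, while *Pltp* is highest in knockout replicates 2 and 3.

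The repair genes had the group median nearest 0, at −0.07 over 5 genes. *Polk*, a polymerase that copies past DNA damage, measured 9.46, 8.26 and 8.69 in knockout and 8.94, 10.20 and 10.11 in wild type. It was the only one of the 5 that passed without replicate 1 (−1.68 ± 0.20, SE). *Ercc5*, an endonuclease of nucleotide excision repair, was at −0.46 ± 0.38 over all arrays, and *Rrm2b*, a ribonucleotide reductase subunit, at −0.06 ± 0.25; the signs of *Rrm2b* and of *Xpc* changed in some alternatives. The damage sensors of nucleotide excision repair were at −0.07 ± 0.40 for *Xpc* and 0.53 ± 0.29 for *Ddb2*. *Ddb2* was higher within each replicate number (0.51, 0.86 and 0.23), and so was its second probe set in the mean (0.54). Within replicate 1 all 5 repair genes were higher in knockout, by 0.17 to 0.60.

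Of the feedback genes, *Mdm2* and *Ccng1* were low in knockout replicates 2 and 3. *Mdm2*, the ligase that marks p53 for destruction and is itself a p53 target, measured 10.61, 8.85 and 8.91 in knockout and 10.43, 11.34 and 12.36 in wild type. Its difference was −1.92 ± 0.67 (SE) over all arrays and −2.97 ± 0.35 without replicate 1, a 7.84-fold lower signal. The second probe set of *Mdm2* was at −2.26, and another, dim one at −0.26. *Ccng1*, cyclin G1, which brings a phosphatase to Mdm2, measured 13.45, 9.95 and 9.95 in knockout and 12.70, 13.54 and 12.86 in wild type. The difference without replicate 1 was −3.25 ± 0.25 (SE), and all 3 probe sets were at −1.92 to −2.29 over all arrays.

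*Rps27l*, a ribosomal protein homologue that affects p53 stability, carries decamers with 1 mismatch, as *Ccng1* does, and differed by −0.33 ± 0.36 (SE). Its values were 14.24, 13.10 and 13.14 in knockout and 13.96, 14.01 and 13.48 in wild type, near the top of the signal range. *Trp73*, the p53 relative p73, was the 1 member below the array median on all 6 arrays, and its difference of −0.01 ± 0.22 had the other sign in some alternatives.

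The members with other functions held the extremes of both directions. *Cd80*, a costimulatory ligand of T cells, measured 6.47, 4.87 and 4.31 in knockout and 7.36, 8.32 and 8.86 in wild type. The groups did not overlap, and the fitted difference was −2.96 ± 0.66 (SE). In knockout replicates 2 and 3 its signal lay below the array median, so the size of the difference is uncertain. *Cd80* is also a gene of leukocytes, and their markers moved in different ways. *Cd14*, a receptor of myeloid cells, measured 7.89, 5.87 and 5.75 in knockout and 8.17, 8.35 and 8.89 in wild type, without overlap (without replicate 1, limma adjusted p = 0.0060). *Tyrobp*, an adaptor of myeloid receptors, was high in knockout replicate 1 alone (9.14, 5.45 and 5.05 in knockout, against 5.40, 5.03 and 4.88 in wild type), and *Cd86* lay below the array median throughout. One of the 4 *Cd80* probe sets, a dim one, went the other way at 0.14. *Ephx1*, microsomal epoxide hydrolase, was at 12.00, 8.64 and 9.39 in knockout and 12.04, 12.51 and 12.33 in wild type, or 10.6-fold lower without replicate 1. *Tap1*, a peptide transporter of antigen presentation, was highest on both replicate 1 arrays (8.30 in knockout and 8.28 in wild type), and its 3 other probe sets, all dim, were at −0.05 to 0.18.

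*Pltp*, phospholipid transfer protein, was the member that went furthest the other way. It measured 7.94, 8.67 and 10.01 in knockout and 6.86, 7.87 and 7.55 in wild type, without overlap, a difference of 1.45 ± 0.57 (SE). Within replicate numbers it was higher by 1.09, 0.81 and 2.46, and its second probe set by 1.02 in the mean.

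Probe sets of a member mostly had one sign. The 33 genes had 66 probe sets, and 20 genes had several. Of the 33 probe sets that were not chosen, 27 had the sign of the chosen one and 6 did not, and 11 lay below the array median on every array.

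Genes repressed by p53 through p21 and the DREAM complex are mostly genes of cell division. Their medians separated the arrays by replicate number and not as the targets did. Relative to each gene's mean, the median of 20 such genes was −1.48, 0.85 and 1.11 in knockout and −2.03, 1.05 and 0.55 in wild type. They were thus lowest on both replicate 1 arrays, where *Cdkn1a* had its highest signal. On replicates 2 and 3 they were high in both genotypes, while *Cdkn1a* differed there. Their median difference was 0.26, from −0.17 (*Cdk1*) to 0.85 (*Chek1*), and without replicate 1 the test called 0 as lower and 1 as higher, against 6.41% and 7.56% of all genes. Within replicate numbers 1, 2 and 3 their median differences were 0.50, −0.13 and 0.39, with 3, 10 and 3 of the 20 below 0. Single genes did change sign as many targets did. *Mki67* differed by 2.20, −0.46 and −0.46 in replicates 1, 2 and 3, and *Kif23* by 1.67, −0.73 and −0.50. Whether the rate of division has a part in the replicate pattern of p53 targets was not tested.

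**Figure D4:**
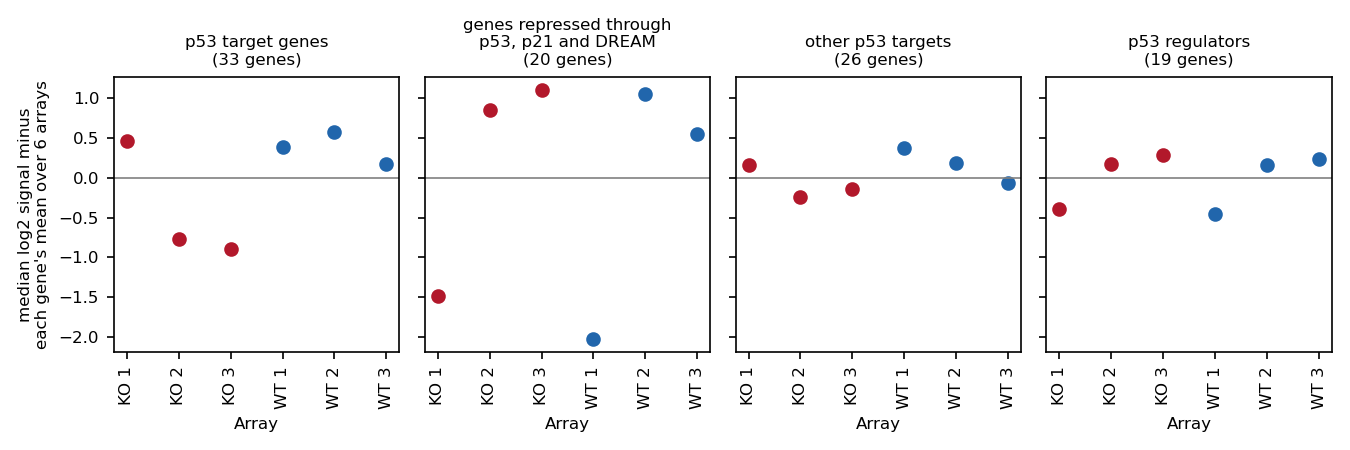
Median log2 signal relative to each gene's mean over the 6 arrays, for 4 gene lists, by array (red, *Hotair* knockout; blue, wild type). The p53 targets are low in knockout replicates 2 and 3 (−0.77 and −0.89), whereas the genes repressed through p53, p21 and DREAM are low in replicate 1 of both genotypes (−1.48 and −2.03).

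Regulators of p53 were not lower as a group. Of 19 measured, 6 lay below 0, with a median of 0.16 and a range from −0.63 (*Hipk2*) to 1.19 (*Cdkn2a*). Without replicate 1, 1 was called lower (*Atr*) and 1 higher (*Trp53bp1*), against 6.41% and 7.56% of all genes. *Cdkn2a*, whose Arf product inhibits Mdm2, measured 11.14, 12.41 and 13.35 in knockout and 11.95, 9.85 and 11.54 in wild type. The groups overlapped, with the 2 highest signals in knockout replicates 2 and 3, and its single probe set does not tell Arf from Ink4a here. *Mdm4*, the Mdm2 relative, differed by 0.22, the kinases *Atm* and *Chek2* by 0.37 and 0.57, and *Ppm1d*, a phosphatase induced by p53, by 0.16.

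A second list of 26 measured p53 targets was less uniform, with 16 below 0, a median of −0.17 and a range from −2.69 (*Dcxr*) to 2.65 (*Igfbp3*). By replicate number its medians were 0.01, −0.50 and 0.13, with 13, 15 and 12 genes below 0. The list as a whole was thus not lower in replicate 3. *Dcxr*, a sugar reductase, measured 11.43, 5.28 and 6.35 in knockout and 11.45, 10.27 and 9.41 in wild type, with knockout replicates 2 and 3 the lowest arrays. *Igfbp3*, a binding protein of insulin-like growth factors, was at 10.68, 7.36 and 8.17 in knockout and 8.19, 5.18 and 4.89 in wild type. *Dcxr* lay below the array median in knockout replicate 2, and *Igfbp3* in wild-type replicates 2 and 3. Both differences are therefore uncertain in size. Without replicate 1 the test called 8 of the 26 as lower and 1 as higher, against 6.41% and 7.56% of all genes. A list of 19 genes linked to senescence, not all of them secreted, showed both directions. Of these, 8 lay below 0, with *Plaur* at −1.84 and *Igfbp5* at 3.14. *Igfbp5* differed by −0.54, 7.47 and 2.49 by replicate number. It lay below the array median in wild-type replicate 2 (4.78), so its difference is uncertain in size. Without replicate 1, 2 of the 19 were called lower and 6 higher, against the same 6.41% and 7.56%. Interferon-response genes, which share regulation with *Tap1*, had a median of 0.14 over 17 genes, from −0.41 (*Usp18*) to 0.70 (*Psmb8*). Without replicate 1, 0 of the 17 were called lower and 2 higher (*Irf1* and *Psmb8*), against the same 6.41% and 7.56%.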

How the data were processed

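RNA of 6 fibroblast samples, 3 *Hotair* knockout and 3 wild type, was hybridised to Affymetrix mouse arrays. The deposited values are log2 signals, one per probe set and array. The submitters' processing notes name RMA and R 2.11.1, and the chip annotation used upstream is not given in the sources used here. RMA equalises the arrays, so a change in total RNA cannot be seen. Of 45101 probe sets, 64 controls were left out and 34945 had 1 gene in the platform annotation. Each of 18193 genes was represented by its probe set with the highest mean.

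Knockout was set against wild type by limma 3.58.1 (R 4.3.3), with lmFit and eBayes and genotype as the only term, across all genes, with Benjamini-Hochberg adjustment at 0.05, and again on 4 arrays without replicate 1 and with an interaction term. The scripts were tested on simulated data. An exact permutation test of 3 against 3 arrays cannot go below 0.1, so the number of arrays limits the precision. Members, lists and the setting aside of replicate 1 were chosen with earlier results of these data known. All members were named. Of each other list the genes with the lowest and highest difference were named, as were *Mdm4*, *Ppm1d*, *Cdkn2a*, *Atm* and *Chek2*, and any further gene was picked with its values known.

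The genotypes share replicate numbers. Same-numbered arrays deviated together from their genotype's mean (Pearson correlation across genes 0.51, 0.39 and 0.35 for numbers 1, 2 and 3). The numbers were used to pair the arrays in the replicate block and in the differences by replicate number. The main fit and the fit without replicate 1, with their SEs, did not use this pairing. Wild-type replicate 3 correlated at 0.43 with knockout replicate 2, and replicate 1, which stands apart in both genotypes, makes the other arrays correlate by itself. These correlations therefore cannot show whether the numbers mark true pairs.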

Additional observations from a re-analysis of the deposited data

How the results depend on the processing

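The replicate block, eBayes with a trend and robust prior, the filter on dim genes, a repeated quantile normalization, the 2 other choices of probe set and the test of all probe sets each left 0 genes and 0 members called between genotypes, with 642 to 2406 genes or probe sets and 5 to 12 members at an unadjusted p under 0.05. Array weights called 2101 genes and 17 members, and leaving out both arrays numbered 1 called 2542 genes and 18 members. Leaving out 1 array called 0 to 87 genes and 0 to 4 members, with all calls in the fit without knockout replicate 1. The members' median difference, −0.74, ranged from −1.25 to −0.52 when 1 array was left out and kept its sign under every alternative. With the replicate block the unadjusted count of members at p under 0.05 was 12 instead of 6, and no call after adjustment changed. The sign of 27 members was the same in every alternative, and that of *Gadd45a*, *Sesn1*, *Dusp4*, *Xpc*, *Rrm2b* and *Trp73*, none of them called, changed in some. The interaction with replicate 1 called 359 genes and 8 members. It called 609 genes with the trend and robust prior, 92 genes and 1 member with the mean of probe sets, 21 genes and 0 members with the most variable probe set, and 0 genes and 0 members over all probe sets. The cause was not tested, except that more features were tested in the last. Signal over background limits *Trp73*, below the array median on every array. It also limits the size of the differences of *Eda2r*, *Perp*, *Cd80* and *Pmaip1*, below that median in knockout replicate 3. All of these but *Pmaip1* lay below it in knockout replicate 2 too. The same limit holds for *Dusp4*, below the median in wild-type replicate 2. Among genes outside the members it holds for *Dcxr*, *Igfbp3*, *Igfbp5*, *Thy1*, *Dsp* and others.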
